A study of Bos taurus with 68 samples.

Results

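The clones described here are the 56 cDNA probes, for 54 genes, whose ratio of liver to a reference standard RNA averaged 2 or more on the log2 scale, that is 4 times the reference or more. They were chosen from the 5598 clones that named exactly 1 gene among the 5693 listed on the array. The mean ran over all cow-days of the larger of the 2 deposited tables. In all, 81 clones reached that mean, and 25 of them carried symbols that the choice left out, such as transferrin, ceruloplasmin, complement genes and solute carriers. HAVCR1 and CYB5A served as the markers of the set, and both were in it. Because the ratio chose the members, its size is given as a description with no test.

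Liver RNA came from 5 cows, numbered 6934, 6983, 7079, 7186 and 7188, sampled on days -65, -30, -14, 1, 14, 28 and 49 relative to calving. The labels give no breed, age or treatment, so day is the single factor they set between groups. Whether any animal received an agent is not stated. Each cow-day was co-hybridised with the reference RNA on a pair of 2-colour cDNA arrays, once with liver in Cy5 and once with liver in Cy3. The larger table held 30 cow-days and the smaller table held 4, namely cow 6934 on days -14 and 14, cow 7079 on day -14 and cow 7188 on day 14. Days -65, -30, 1 and 28 had 5 cows in the larger table, days -14 and 14 had 3, and day 49 had 4. What tissues made up the reference RNA is not given in the sources used here.

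The deposited values do not state which channel is the numerator. Liver over reference is taken here as the likely direction. The main reason is the 5 defining stellate cell and fibroblast markers (COL1A2, COL3A1, DCN, SPARC and VIM). Averaged over the clones of each gene, these markers lay below 0, between -4.15 and -0.97. In the fuller list of 15 such genes the 21 clones had a median of -0.86, and 7 of them lay above 0, up to 1.37 for MGP. With the ratio the other way round every sign below turns, also of differences between days. Of 14 hepatocyte markers 3 had a clone, APOA1 at 0.06, ASS1 at 0.63 and ASGR2 at 2.50, but ASGR2 is a member and so was above 0 by the choice. Of 20 Kupffer cell and macrophage genes with 29 clones, 27 clones lay above 0, and both clones of SPP1, also a bile duct gene, lay below it at -2.58 and -0.12. The 4 defining endothelial markers on the array, averaged in the same way, lay between 0.23 and 0.80. By clone, PECAM1 had -0.08 and 1.08 and KDR had 0.11 and 0.84. In whole tissue, fewer cells of a type and less RNA per cell cannot be told apart. No clone was listed for an erythroid marker.

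Before the sign is turned, a pair of dye-swapped arrays should oppose each other. Of the 30 pairs in the larger table, 5 did not, since their correlation across rows was not below 0. These were cows 6934 and 7188 on day 49, cows 6983 and 7186 on day 14, and cow 7079 on day 1. They are called the unopposed cow-days, and all but that of 7079 lay in lactation. Without them 62 clones reached a mean of 2, and all 56 members were among them. For the 3 comparisons of days the members' median is given with and without them.

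As background, hepatocytes carry most of the liver's handling of foreign compounds, fatty acids, sterols and amino acids, and they secrete most plasma proteins. Cytochrome b5 is a small haem protein of the endoplasmic reticulum that passes electrons to cytochrome P450 enzymes, to fatty acid desaturases and to sterol enzymes. HAVCR1, also called TIM-1 or kidney injury molecule 1, is a membrane receptor for phosphatidylserine best known from injured kidney tubules and T cells of human and mouse. Around calving the liver of a dairy cow takes up fatty acids mobilised from fat tissue while milk production starts.

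HAVCR1 had the highest mean of the members. Over the 30 cow-days its log2 ratio had a lowest value of 3.72, a median of 5.98 and a highest value of 7.46, with a mean of 5.88 ± 0.68 (SD over 5 cow means). In cow 6934 it was 5.75 on day -65, 4.22 on day -30, 6.27 on day 1, 6.19 on day 28 and 4.69 on day 49. In cow 6983 it was 6.20 on day -65, 7.31 on day -30, 6.07 on day -14, 6.70 on day 1, 5.18 on day 14 and 7.46 on day 28. Both cows thus had HAVCR1 far above the reference on each measured day, with day -30 the low point of one and among the high points of the other. In cow 7079 it was 6.53 on day -65, 7.17 on day -30, 6.55 on day 1, 7.04 on day 14, 5.64 on day 28 and 5.53 on day 49. In cow 7186 it was 5.49 on day -65, 7.24 on day -30, 5.39 on day -14, 5.90 on day 1, 6.33 on day 14, 5.58 on day 28 and 6.46 on day 49. In cow 7188 it was 4.75 on day -65, 5.29 on day -30, 6.21 on day -14, 4.87 on day 1, 4.60 on day 28 and 3.72 on day 49. Cow 7188 was low on most of its days and the day groups overlapped throughout. Of the 19 kidney tubule genes listed, the array held 2 besides HAVCR1, the water channel AQP1 at -0.09 and the gamma-glutamyltransferase GGT1 at 0.35 and 0.44 on its 2 clones, far below HAVCR1. The other member of its family on the array, the macrophage receptor TIMD4, had 1.57 and 1.44 on its 2 clones.

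CYB5A, the microsomal cytochrome b5, averaged 3.94 ± 0.45 (SD over 5 cow means), with a lowest cow-day of 1.77, a median of 4.13 and a highest of 5.60. In cow 6934 it was 3.96 on day -65, 4.03 on day -30, 4.53 on day 1, 4.25 on day 28 and 3.67 on day 49. In cow 6983 it was 4.20 on day -65, 4.58 on day -30, 3.94 on day -14, 4.44 on day 1, 4.13 on day 14 and 4.81 on day 28. These 2 cows kept CYB5A within a narrow band over the days measured. In cow 7079 it was 4.19 on day -65, 3.63 on day -30, 3.51 on day 1, 4.39 on day 14, 3.26 on day 28 and 3.004 on day 49. In cow 7186 it was 2.31 on day -65, 5.60 on day -30, 2.44 on day -14, 4.99 on day 1, 4.73 on day 14, 4.90 on day 28 and 4.94 on day 49. In cow 7188 it was 3.96 on day -65, 4.13 on day -30, 4.49 on day -14, 1.77 on day 1, 2.60 on day 28 and 2.80 on day 49. Cow 7186 was low on 2 days before calving, and cow 7188 was low on days 1, 28 and 49. Day 14 of cow 7188, measured in the smaller table only, was not low, at 4.68. The list made for cytochrome b5 and its electron transfer partners also held NSDHL, a sterol enzyme not counted as such a partner. Of the 8 genes of that list on the array, 2 were members, CYB5A and NSDHL. MSMO1, the sterol methyl oxidase that takes electrons from cytochrome b5, lay just below the threshold at 1.96, while the outer mitochondrial form CYB5B had 0.55 and -0.17 on its 2 clones, the reductase CYB5R3 had 0.43, CYB5R4 had -0.59, CYB5D2 had 0.05 and the P450 reductase POR had 0.10.

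**Figure D1:**
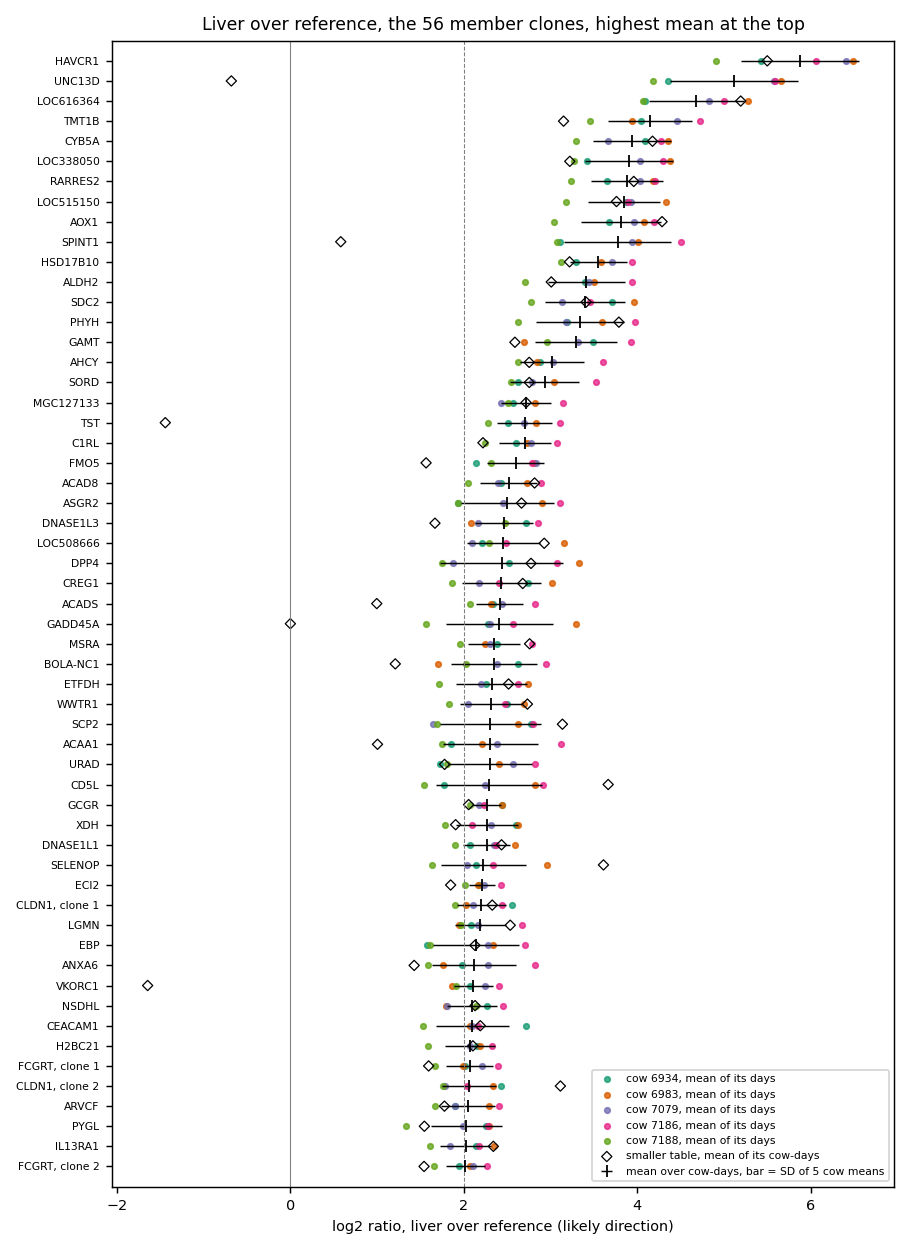
Log2 ratio of liver over reference (x axis) of each of the 56 member clones (y axis, highest mean at the top). Dots are the 5 cow means, the black tick is the mean over cow-days with a bar of 1 SD over cow means, the dashed line is the threshold of 2, and open diamonds are the means of the smaller table. HAVCR1 stands at the top at 5.88, the dots of cow 7188 lie at the left of most lines, and the diamonds of UNC13D, TST and VKORC1 lie below 0.

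Among the other clones of highest mean, UNC13D averaged 5.11 ± 0.74 (SD over 5 cow means), with a lowest cow-day of 2.59, a median of 5.58 and a highest of 6.88. UNC13D primes secretory granules for release in cytotoxic lymphocytes and other blood cells. The gene listed as LOC616364 averaged 4.68 ± 0.54, between 2.31 and 6.19 with a median of 4.64. TMT1B, a methyltransferase of thiol compounds, averaged 4.15 ± 0.49, between 2.53 and 5.85 with a median of 4.12. None of these 3 came down to the reference on any cow-day of the larger table.

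LOC338050 averaged 3.91 ± 0.51 (SD over 5 cow means) and lay between 2.02 and 5.49 with a median of 3.95. RARRES2, which encodes the secreted chemoattractant chemerin, averaged 3.88 ± 0.41 and lay between 1.999 and 5.35 with a median of 4.04. LOC515150 averaged 3.84 ± 0.42 and lay between 2.38 and 5.59 with a median of 3.85. The files give no further name for the LOC entries. AOX1, the aldehyde oxidase that also oxidises nitrogen ring compounds, averaged 3.81 ± 0.46 and lay between 1.23 and 5.83 with a median of 3.74. SPINT1, a membrane inhibitor of the protease that activates hepatocyte growth factor, averaged 3.78 ± 0.62 and lay between 1.22 and 5.43 with a median of 3.87.

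The 14 clones of membrane receptors and adhesion proteins had means between 2.02 and 5.88, with a median of 2.23. ASGR2, a subunit of the receptor that clears desialylated glycoproteins from plasma, averaged 2.50 ± 0.54, with a lowest cow-day of 0.11, a median of 2.61 and a highest of 4.00. GCGR, the glucagon receptor, averaged 2.27 ± 0.16 and lay between 0.95 and 3.73 with a median of 2.24. GCGR had one of the smallest spreads between cow means, which ran from 0.15 to 0.74 over the members. Of the 5 hepatocyte surface receptors on the array, the other 3 were below the threshold, IL6R at 1.98, LIFR at 0.51 and SCARB1 at 0.48. SDC2, the cell surface proteoglycan syndecan 2, averaged 3.40 ± 0.47, and DPP4, a peptidase that cleaves incretin hormones, averaged 2.44 ± 0.71.

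CLDN1, a tight junction protein, was 1 of 2 genes with a pair of member clones, at 2.20 ± 0.28 and 2.06 ± 0.31. Their cow-day values lay between 1.04 and 4.36 with a median of 2.03 on the first clone, and between 0.51 and 4.32 with a median of 1.98 on the second. FCGRT, the neonatal Fc receptor that recycles immunoglobulin G and albumin, had 2.07 ± 0.27 and 2.02 ± 0.23 on its member clones. They lay between 0.83 and 2.93 with a median of 2.01, and between 0.73 and 3.11 with a median of 1.95. The clones of each pair thus lay closer to each other than the SD over cows, but the choice asked for 2 or more of both. In the smaller table, which the choice did not use, the CLDN1 clones had 2.33 and 3.11. Those of FCGRT had 1.59 and 1.54 there. FCGRT also had 2 clones outside the set, at 0.71 and 0.24 in the larger table.

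The 10 clones of oxidation, conjugation and redox enzymes had means between 2.11 and 4.15, with a median of 2.65. Beside CYB5A, AOX1 and TMT1B they included ALDH2, the mitochondrial enzyme that clears acetaldehyde, at 3.41 ± 0.44, the sulfur transferase TST at 2.70 ± 0.32, the monooxygenase FMO5 at 2.60 ± 0.33 and the purine enzyme XDH at 2.27 ± 0.36. VKORC1, the vitamin K epoxide reductase that clotting factor synthesis needs, averaged 2.11 ± 0.22. Of the 11 genes of cytochrome P450 and other oxidation enzymes on the array, 4 were members (ALDH2, AOX1, FMO5 and XDH). The cortisol-regenerating enzyme HSD11B1 of that list lay at -0.29.

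The 9 clones of fatty acid and sterol enzymes had means between 2.10 and 3.55, with a median of 2.31. HSD17B10, a mitochondrial dehydrogenase of branched-chain acids and steroids, averaged 3.55 ± 0.33, and PHYH, which starts the breakdown of phytanic acid in peroxisomes, averaged 3.34 ± 0.51. ACADS, ETFDH, SCP2, ACAA1 and ECI2, which act in mitochondrial or peroxisomal fatty acid breakdown, lay between 2.21 and 2.41. These 5 were the members among 17 genes of fatty acid, ketone and triglyceride metabolism on the array, whose 20 clones had a median of 1.01 and lay above 0 in 18 cases. The lipid droplet protein PLIN2 was one of the others, at -0.40. NSDHL, which removes methyl groups from sterol precursors, averaged 2.10 ± 0.29, with a lowest cow-day of 0.62, a median of 2.14 and a highest of 3.28. EBP, the sterol isomerase of a later step, averaged 2.14 ± 0.49.

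The 5 clones of carbohydrate, amino acid and one-carbon enzymes had means between 2.03 and 3.29. GAMT, which makes creatine, averaged 3.29 ± 0.47, AHCY, which hydrolyses S-adenosylhomocysteine, 3.02 ± 0.37, SORD, the sorbitol dehydrogenase, 2.93 ± 0.40, ACAD8 of valine breakdown 2.51 ± 0.32, and PYGL, the liver glycogen phosphorylase, 2.03 ± 0.41. GAMT and AHCY were the 2 members among 18 urea cycle and amino acid genes on the array. In that list the 24 clones had a median of 0.21, and the glutamine synthetase GLUL lay below 0 on all 4 of its clones.

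The 8 clones of secreted and lysosomal proteins had means between 2.19 and 3.88. SELENOP, the selenium carrier of plasma, averaged 2.23 ± 0.49, CD5L, a protein secreted by tissue macrophages, 2.29 ± 0.61, and LGMN, a lysosomal cysteine protease, 2.19 ± 0.29. DNASE1L3, a secreted DNase, averaged 2.46 ± 0.33. CD5L and LGMN were the members among 20 Kupffer cell and macrophage genes on the array, and the 29 clones of that list had a median of 0.87. Beside UNC13D, the 5 clones of intracellular regulation included the stress-induced growth arrest gene GADD45A at 2.41 ± 0.62, the Hippo pathway coactivator WWTR1 at 2.31 ± 0.36 and the membrane-binding annexin ANXA6 at 2.11 ± 0.49. The 5 clones of genes without a name had means between 2.45 and 4.68.

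Just inside the threshold lay CLDN1 on its second clone at 2.06, ARVCF at 2.05, PYGL at 2.03, IL13RA1 at 2.02 and FCGRT on its second clone at 2.02. Just outside lay YTHDC2 at 1.998, a second FMO5 clone at 1.997, COASY at 1.98, IL6R at 1.98 and IFNGR2 at 1.98. The SD over cow means of these 10 clones was between 0.19 and 0.45, so the threshold separated values that did not differ beyond their spread.

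Of 1675 cow-day values of members, 6 lay below 0, while 96.7% were 1 or more and 74.6% were 2 or more. In every measured cow-day 50 members lay above 0, 26 were at 1 or more and 6 were at 2 or more. A mean of 2 or more in each of the 5 cows was reached by 27 members. The 6 values below 0 came from ACAA1, CD5L and EBP in cow 6934 on day -30, PYGL and SCP2 in cow 7188 on day 1, and URAD, an enzyme of urate breakdown, in cow 6983 on day 14. Thus 5 of the 6 came from 2 cow-days. The median over members in a cow-day was lowest at 1.67 in cow 7188 on day 49 and highest at 3.93 in cow 7186 on day -30. Between animals the members' median SD over cow means was 0.41, against 0.22 over all clones with 1 gene. The 49 clones at a mean of -2 or less had a median SD of 0.32.

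Other clones of the same genes often did not share the high ratio. Of the 54 genes, 41 had a single clone on the array, and 12 had 13 other clones outside the set. Of these 13, FMO5 at 1.997, IL13RA1 at 1.73 and TST at 1.49 were at 1 or more, and 8 were under 0.5. ACAD8 had 2.51 on its member clone and -0.01 on the other, URAD 2.30 and -0.01, DNASE1L3 2.46 and 0.04, BOLA-NC1, a major histocompatibility class I gene, 2.35 and 0.14, ECI2 2.21 and -0.29, ACAA1 2.31 and 0.26, and DNASE1L1 2.26 and 0.32. PYGL had 2.03 and 0.81. cDNA clones can cover different stretches of a transcript and can bind related transcripts, and neither was tested. By the gene table of ARS-UCD2.0, chromosome X held 5 of the 56 members (8.93%), HSD17B10, DNASE1L1, EBP, NSDHL and IL13RA1, beside 2.74% of the clones with 1 gene and a chromosome.

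The dye orientations used the same liver RNA, and their difference did not enter the choice. With liver in Cy5 HAVCR1 averaged 6.21 and with liver in Cy3 5.55, and CYB5A averaged 4.24 and 3.64. The difference, liver in Cy5 minus liver in Cy3, was 0.65 ± 0.14 (SE, 5 cows) for HAVCR1 and 0.59 ± 0.15 for CYB5A, with adjusted p = 0.00157 and 0.00399 in limma. It was called for 33 of 55 members tested, against 73% of all 5280 clones tested, a smaller share than the background. Of the 33, 29 were higher in Cy5, where the background for higher calls was 39.8%, and 4 were lower. That split changed with centring. On uncentred arrays 15 members were called, 1 higher and 14 lower, against 56.3% of all clones called and 53.6% called lower. Neither HAVCR1 (0.10, adjusted p = 0.653) nor CYB5A (0.04, adjusted p = 0.869) passed on uncentred arrays. There limma gave every tested member the same SE, 0.18, so p on uncentred arrays does not measure a clone's own spread over cows. The median difference over members was 0.40 on centred arrays, against 0.09 over all clones. On uncentred arrays it was -0.15, against -0.46. Leaving out centring moves the differences of all clones by nearly the same amount, so the gap between the medians could not change.

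The largest higher calls were GADD45A at 0.97 ± 0.18 (SE), SELENOP at 0.94 ± 0.20, UNC13D at 0.93 ± 0.19, AHCY at 0.90 ± 0.13, SCP2 at 0.85 ± 0.13, ALDH2 at 0.84 ± 0.12, ASGR2 at 0.83 ± 0.24, ACAD8 at 0.82 ± 0.15, HSD17B10 at 0.81 ± 0.13 and PHYH at 0.81 ± 0.18. Their adjusted p in limma lay between 0.000137 for ALDH2 and 0.00980 for ASGR2. The lower calls were CEACAM1, an adhesion molecule of the bile canaliculus, at -0.72 ± 0.11, LOC515150 at -0.69 ± 0.12, CLDN1 on its second clone at -0.58 ± 0.12 and AOX1 at -0.38 ± 0.15, with adjusted p from 0.000212 for CEACAM1 to 0.0415 for AOX1. On each of these 14 clones the mean ratio lay above 0 in both orientations. The choice was made on the average of the orientations, so with differences of this size no other outcome was possible. On uncentred arrays, where all differences moved downward, GADD45A, at 0.42 with adjusted p = 0.0357, and the 4 lower clones kept their calls. The other 9 did not pass there, with adjusted p from 0.0505 for SELENOP to 0.206 for PHYH. On scaled arrays 27 members were called, all of them higher, against 68.5% of all clones called. The higher clones named here were among those 27, and none of the 4 lower clones passed.

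Set by 1 orientation alone, the list would differ. With liver in Cy5 62 clones reached a mean of 2, and 53 of them were members (85.5% of that list and 94.6% of the members). With liver in Cy3 138 clones did, and 41 of them were members (29.7% of that list and 73.2% of the members). The other 97 had a median of 2.21 with liver in Cy3 and of -1.38 with liver in Cy5, and 87 of them were below 0 in Cy5. In both orientations at 2 or more were 38 members, the values of which are shown by the plot of the orientations.

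**Figure D2:**
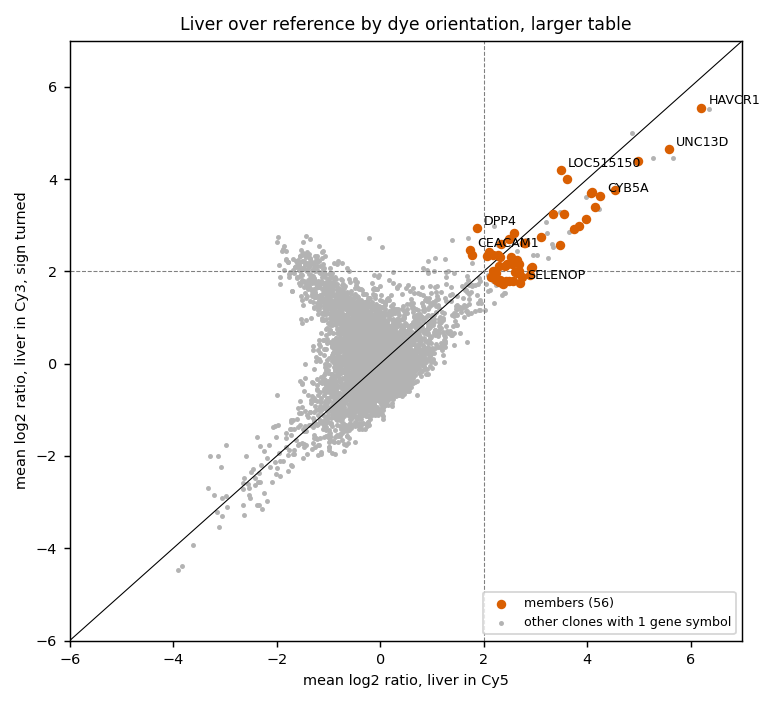
Mean log2 ratio of liver over reference with liver in Cy5 (x axis) and with liver in Cy3, sign turned (y axis), larger table. Orange points are the 56 members, grey points the other clones with 1 gene, the diagonal marks equal values and dashed lines mark 2. Members run along the diagonal, with 38 at 2 or more on both axes, while a grey arm at the upper left holds clones above 2 with liver in Cy3 that were below 0 with liver in Cy5.

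The smaller table gave cow-days that the choice of members had not used, although the cows and the reference were the same. It belongs to a different array platform, so its values are set beside those of the larger table. They are pooled with them only in the alternative that joined both tables. A limma test against 0 over 3 cow means called 52 of 55 members tested, against 43.9% of all clones tested, and 50 of them lay above 0, where the background for higher calls was 20.4%. URAD, measured in 3 of the 4 cow-days, was not tested. The median over the tested members was 2.48, against -0.06 over all clones tested. In means over the 4 cow-days 38 members were at 2 or more and 50 at 1 or more.

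HAVCR1 had 4.21 and 5.70 on days -14 and 14 of cow 6934, 5.95 on day -14 of cow 7079 and 6.13 on day 14 of cow 7188. CYB5A had 4.79 and 4.63 on days -14 and 14 of cow 6934, 2.60 on day -14 of cow 7079 and 4.68 on day 14 of cow 7188. Both genes thus lay far above the reference in each cow-day of the smaller table. The fitted mean was 5.68 ± 0.27 (SE, 3 cows) for HAVCR1, with adjusted p = 2.81e-06 in limma, and 4.00 ± 0.39 for CYB5A, with adjusted p = 0.000118. LOC616364 had 5.20 ± 0.23, with the same adjusted p as HAVCR1. AOX1 had 4.22 ± 0.29, RARRES2 3.90 ± 0.22 and HSD17B10 3.23 ± 0.20.

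A few members went the other way in the smaller table. UNC13D, the second highest of the members at 5.11 in the larger table, had -0.76 and -0.78 on days -14 and 14 of cow 6934, 0.37 on day -14 of cow 7079 and -1.55 on day 14 of cow 7188. None of these 4 values reached its lowest cow-day of the larger table, 2.59. TST had -1.20, -1.50, -1.56 and -1.51 in the same order of cow-days, and VKORC1 had -1.49, -1.46, -1.51 and -2.12. Both passed the test below 0, TST at -1.47 ± 0.21 (SE, adjusted p = 0.000778) and VKORC1 at -1.70 ± 0.23 (adjusted p = 0.000587), with every cow-day of the smaller table on the other side of the reference from every cow-day of the larger table.

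GADD45A lay between -0.34 and 0.38 in the smaller table, and SPINT1 between -0.17 and 1.21, against a lowest cow-day of 0.63 and of 1.22 in the larger. The smaller table's test was not passed by UNC13D (adjusted p = 0.139), GADD45A (0.805) and ACAA1 (0.0705), while SPINT1 passed at 0.70 ± 0.24 with adjusted p = 0.0432. SPINT1 did not pass under any of the 5 alternatives run, with adjusted p between 0.0642 without cow 6934 and 0.132 without cow 7079. Without cow 7079 UNC13D passed at -1.16 with adjusted p = 0.0148 and ACAA1 at 1.29 with adjusted p = 0.00811. ACAA1 also passed with the 4 cow-days as units, at 1.004 with adjusted p = 0.0443. The spots of UNC13D had -0.95 and -0.50 in the smaller table and 5.14 and 5.08 in the larger, while those of ACAA1 had 1.44 and 0.66 in the smaller table and 2.33 and 2.28 in the larger. Whether the clone at these positions is the same in both tables was not tested. CD5L and SELENOP were the other way, at 3.66 and 3.61 in the smaller table and 2.29 and 2.23 in the larger.

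The 2 tables agreed to within 1 for 44 of the 56 members (78.6%), beside 90.6% of all clones with 1 gene. In the larger table the 5th and 95th percentiles of all these clones were -0.91 and 0.88, while members were chosen at 2 or more. The shares, and the correlations that follow, thus compare unlike ranges. Across the 56 members the means of the tables correlated at Pearson's r = 0.40 and Spearman's rho = 0.48, and across 5598 clones at 0.68 and 0.49; the clones share the arrays and the reference, and these are descriptions. There were 91 clones with 1 gene at 2 or more in the smaller table, 38 of them members, and 18 of the 91 were under 1 in the larger table. Among those 18 were HSD11B1 at 3.07 in the smaller table and -0.29 in the larger, and ENPP1, a pyrophosphatase, with 3.06 and 2.40 on its 2 clones in the smaller table and 0.02 and 0.40 in the larger. These were named after their values were seen.

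**Figure D3:**
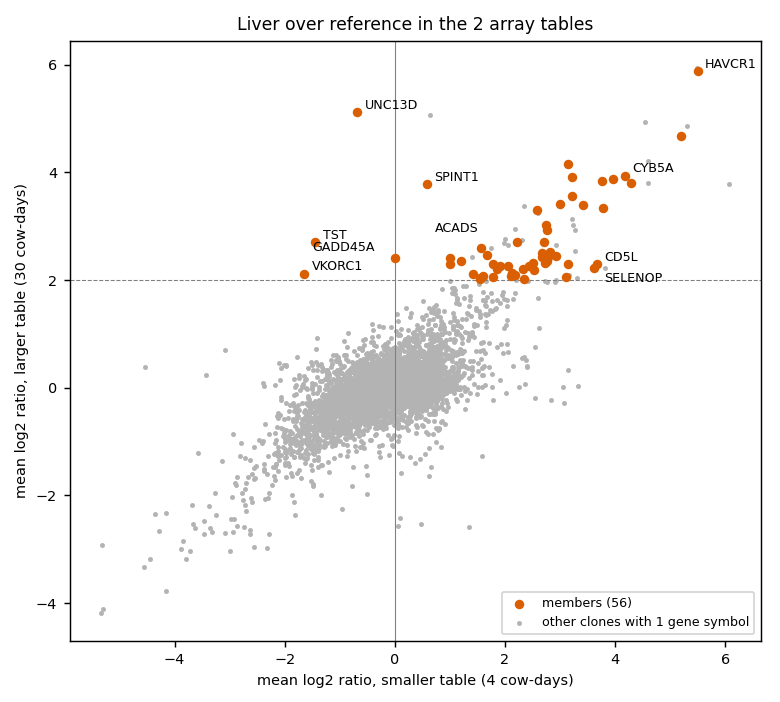
Mean log2 ratio of liver over reference of each clone in the smaller table (x axis, 4 cow-days) and in the larger table (y axis, 30 cow-days). Orange points are the 56 members and grey points the other clones with 1 gene, and the dashed line marks the threshold of 2. HAVCR1 and CYB5A stand at the upper right, 38 of the members lie at 2 or more on both axes, and UNC13D, TST, VKORC1, GADD45A, SPINT1 and ACADS lie at 1 or below on the x axis.

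Differences between days were tested in limma with terms for day and cow, adjusted over all 5280 clones tested. Of the members 55 could be tested; DPP4, measured in 25 of 30 cow-days, could not. An F test over the 7 days called 0 of 55 members, against 0.0189% of all clones (1 clone), and at an unadjusted p under 0.05 it called 9 members, against 5.25% of all clones. The smallest adjusted p of a member was 0.684, for NSDHL (F = 5.08). TMT1B (F = 4.21, adjusted p = 0.747), LGMN (F = 3.78, adjusted p = 0.810) and both FCGRT clones (F = 3.12 and 3.11, adjusted p = 0.889) came next.

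NSDHL had day means of 2.03 ± 0.28 (SD) on day -65, 2.61 ± 0.74 on day -30, 2.36 ± 0.50 on day -14, 1.36 ± 0.28 on day 1, 1.83 ± 0.55 on day 14, 2.68 ± 0.40 on day 28 and 1.75 ± 0.88 on day 49. On day 1 NSDHL had 1.81, 1.34, 1.21, 1.09 and 1.33 in cows 6934, 6983, 7079, 7186 and 7188. On day -30 the same cows had 2.58, 1.42, 3.19, 3.28 and 2.60, and on day 28 they had 2.86, 2.78, 2.20, 3.19 and 2.36. Day 1 was below day -30 in 5 of 5 cows, although the groups overlapped through cow 6983, and day 28 was above day 1 in 5 of 5 cows with no overlap. LGMN had 2.29 ± 0.25 on day -65, 2.50 ± 0.65 on day -30, 2.65 ± 0.69 on day -14, 1.54 ± 0.48 on day 1, 2.29 ± 0.77 on day 14, 2.33 ± 0.39 on day 28 and 1.85 ± 0.39 on day 49. TMT1B had 4.55 ± 0.71 on day -65, 4.34 ± 1.16 on day -30, 4.10 ± 0.62 on day -14, 3.71 ± 0.37 on day 1, 3.72 ± 0.77 on day 14, 4.72 ± 0.32 on day 28 and 3.58 ± 0.90 on day 49. In these 3 genes day 1 and day 49 were among the low days.

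**Figure D4:**
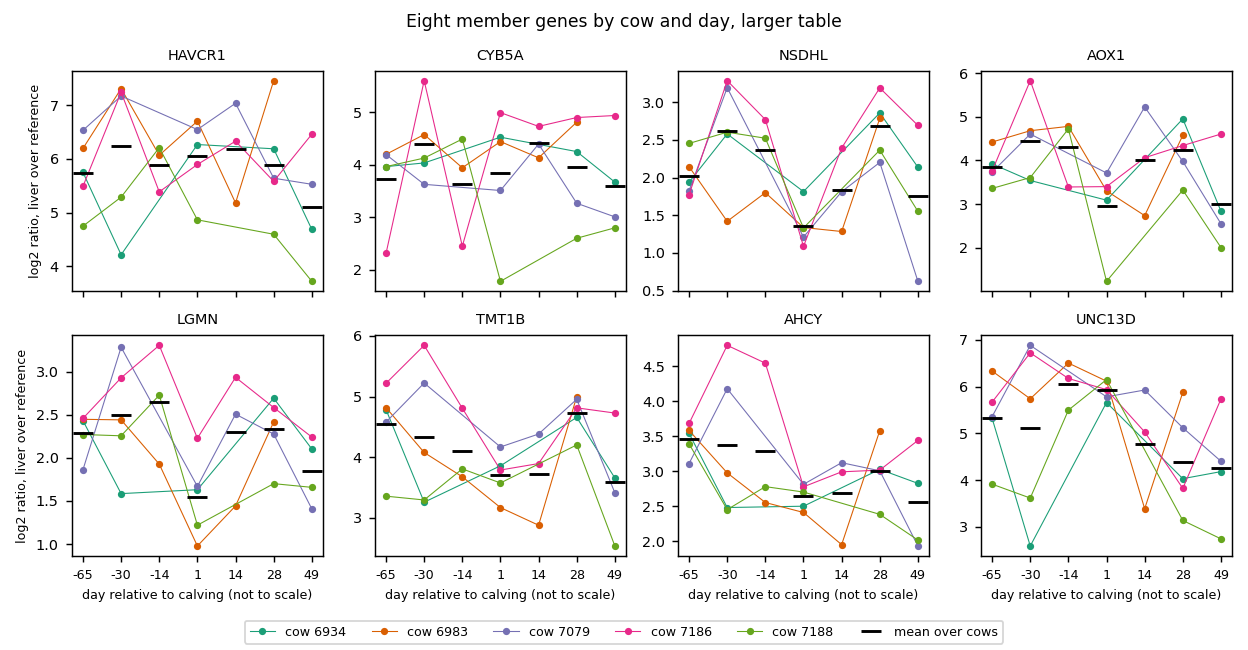
Log2 ratio of liver over reference (y axis) of 8 member genes by day relative to calving (x axis, not to scale) in the larger table. Coloured lines join the days of a cow and black ticks are the means over cows. NSDHL, LGMN and AOX1 are lower on day 1 than on days -30 and 28 in most cows, the lines of the cows cross for HAVCR1 and CYB5A, and 0 of 55 members passed the test over days.

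At calving, day 1 against day -30, 0 of 55 members were called, against 0.0189% of all clones (1 clone), and at an unadjusted p under 0.05 it was 10 members, against 8.37%. The 3 smallest p belonged to NSDHL, with a difference of -1.26 ± 0.30 (SE, adjusted p = 0.219), LGMN, with -0.95 ± 0.27 (adjusted p = 0.324), and AOX1, with -1.50 ± 0.48 (adjusted p = 0.408). AOX1 had 3.09, 3.30, 3.71, 3.40 and 1.23 on day 1, and 3.54, 4.68, 4.60, 5.83 and 3.61 on day -30, in cows 6934, 6983, 7079, 7186 and 7188, lower on day 1 in 5 of 5 cows. When each array was also scaled to the same spread, 5 members passed, NSDHL, LGMN, AOX1, GAMT and TMT1B, with adjusted p between 0.0356 and 0.0462, against 0.189% of all clones (10 clones).

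The difference lay above 0 for 11 of the 55 members, against 42.9% of all clones, with a median of -0.35 over members, against -0.06 over all clones. Without the unopposed cow-days the members' median was -0.50. In cow 6934 the members' median difference was 0.71, opposite to -0.40, -0.79, -1.08 and -0.67 in cows 6983, 7079, 7186 and 7188. Without cow 6934 the median over members was -0.75. On day -30 cow 6934 had a members' median of 1.94 and a median of the 49 clones far below the reference of -1.16, both nearer 0 than on its other days, and on day -30 cow 7186 had the highest members' median of all cow-days. The clones far below the reference had a median difference of -0.49, with 4 of 49 above 0. Without cow 6934 it was -0.12 with 22 of 49 above 0, and on scaled arrays it turned to 0.16 with 30 of 49 above 0.

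Early lactation, day 28 against day 1, gave 0 of 55 members, against 0% of all clones, and 8 members at an unadjusted p under 0.05, against 7.82%. NSDHL had a difference of 1.32 ± 0.30 (SE, adjusted p = 0.177), TMT1B 1.01 ± 0.32 (adjusted p = 0.428) and LGMN 0.79 ± 0.27 (adjusted p = 0.523), and each was higher on day 28 in 5 of 5 cows. GAMT and AOX1 were likewise higher in 5 of 5 cows, with 1.23 ± 0.44 and 1.29 ± 0.48, whereas UNC13D was lower in 5 of 5, with -1.53 ± 0.56 (adjusted p between 0.537 and 0.543 for these 3). The median over members was 0.23, against 0.06 over all clones, and 37 of 55 members lay above 0, against 61.9% of all clones. Without the unopposed cow-days the members' median was 0.35, and without cow 6983 it was 0.05. Day 1 samples enter both of these comparisons, so their values are not independent.

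Lactation, the mean of days 14, 28 and 49, was also set against the mean of the prepartum days -65, -30 and -14. Here 0 of 55 members were called, against 0% of all clones, and 11 members, all lower in lactation, had an unadjusted p under 0.05, against 3.86% of all clones in either direction and 2.48% lower. That count of 11 was 1 without the unopposed cow-days (against 6.67% of all clones), 0 with Cy3 arrays alone (2.71%), 5 without cow 6983 (3.56%) and 5 without cow 7186 (3.54%). AHCY had a difference of -0.71 ± 0.22 (SE), UNC13D of -1.16 ± 0.37 and HSD17B10 of -0.59 ± 0.21, each with adjusted p = 1.000. AHCY was lower in lactation in 5 of 5 cows, and UNC13D and HSD17B10 were lower in 4 of 5. SPINT1 had -0.93 ± 0.36 and RARRES2 -0.57 ± 0.27.

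The lactation difference lay above 0 for 10 of 55 members, against 47.8% of all clones, with a median of -0.27 over members, against -0.01 over all clones. The 49 far-below clones had a median difference of 0.32, toward the reference, with 45 of 49 above 0. Without the 5 unopposed cow-days, the members' median was 0.12 with 34 of 55 above 0, and that of the far-below clones was -0.17. The sign of the lactation difference in the set thus changed when those cow-days, of which 4 were lactation samples, were left out. Day 14 was then left with cow 7079 alone, whose members' median ratio of 3.07 was the highest of that day. Which pairs opposed and which animals remained cannot be told apart here. Without cow 7188 the members' median difference was -0.15. By cow it was 0.15 in 6934, -0.21 in 6983, -0.32 in 7079, -0.28 in 7186 and -0.77 in 7188.

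**Figure D5:**
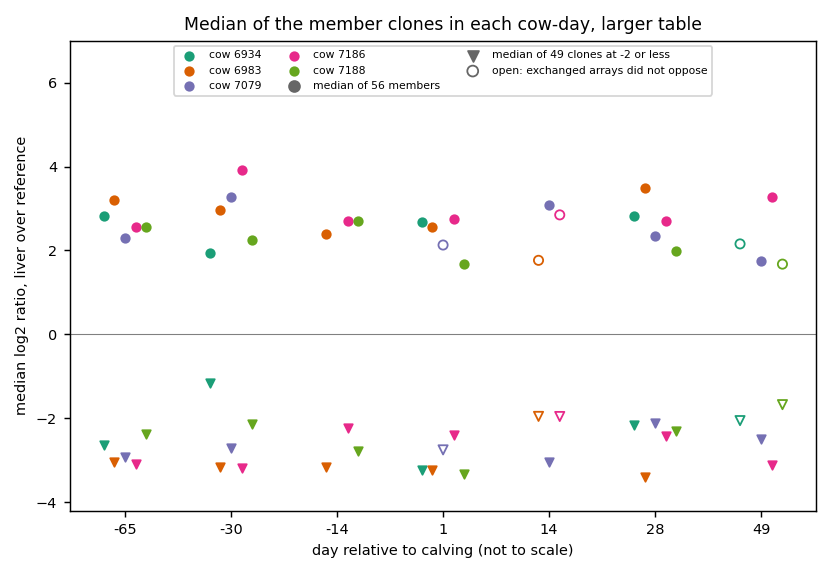
Median log2 ratio of liver over reference (y axis) in each cow-day by day relative to calving (x axis, not to scale), larger table. Circles are the median of the 56 members, triangles the median of the 49 clones at -2 or less, colours are cows, and open symbols are the 5 cow-days whose dye-swapped pair did not correlate below 0. The members' medians lie between 1.67 and 3.93 in every cow-day, and 4 of the 5 open symbols stand on days 14 and 49.

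Differences between animals were tested in the same limma fit. An F test over the 5 cows called 4 of 55 members, against 15.8% of all clones, a smaller share than the background. At an unadjusted p under 0.05 it was 20 members, against 33.7%. TMT1B (F = 6.90, adjusted p = 0.0193) had cow means between 3.46 in cow 7188 and 4.73 in cow 7186, BOLA-NC1 (F = 5.30, adjusted p = 0.0334) between 1.70 in cow 6983 and 2.95 in cow 7186, ALDH2 (F = 4.81, adjusted p = 0.0420) between 2.70 in cow 7188 and 3.94 in cow 7186, and ANXA6 (F = 4.53, adjusted p = 0.0489) between 1.59 in cow 7188 and 2.82 in cow 7186. PHYH was next (F = 4.48) and did not pass, its adjusted p lying just above 0.05. Cow 7186 was the high animal in all 5 of these genes.

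Over all members the mean of a cow's cow-day medians was 2.48 in cow 6934, 2.73 in 6983, 2.48 in 7079, 2.97 in 7186 and 2.14 in 7188. These calls depended on single animals, since without cow 7186 or without cow 6983 no member was called in limma, and over all clones 0 and 1 were called in place of 834. At an unadjusted p under 0.05 it was 13 members without cow 7186 and 14 without cow 6983. Without cow 7188 BOLA-NC1 alone was called, against 15.4% of all clones, and without cow 7079 7 members were, against 12.9%. Without the 5 unopposed cow-days, 0 members were called and 16 had an unadjusted p under 0.05, against 27.1% of all clones. The labels do not say whether arrays of a cow were made together, so animal and processing cannot be told apart.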

How the data were processed

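The deposited files hold a log2 ratio per spot, one dye channel over the other, for 68 arrays in 2 tables of 16416 and 16896 rows. Per the labels, images came from a Scanarray 4000 and were quantified with GenePix 4.0. How background and flags were treated, and any normalization by the authors, is not given in the sources used here; channel intensities were not used, so no loess and no signal over background was available. Arrays of the larger table measured 14607 to 16288 rows each, and those of the smaller 15507 to 16044. The number of arrays limits the precision.

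Arrays were centred on their median, those with liver in Cy3 were turned in sign, and the 2 spots and both orientations were averaged into 1 value per cow and day. Symbols came from the platform annotation, updated by gene identifier to the ARS-UCD2.0 table for 5591 clones; 95 clones with several symbols were tested but not named. No sequence or coordinate is given. No other per-sample column was present (0). The 5280 clones measured in 3 or more cows at every time point were fitted with limma 3.58.1 in R 4.3.3, with fixed day and cow terms, moderated tests, 19 residual degrees of freedom and Benjamini-Hochberg adjustment at 0.05, 2-sided. The fixed cow term is the pairing of days, because the same animals were sampled repeatedly. Cow-day values of a cow correlated at 0.16 after the day term. Dye differences and the smaller table were tested against 0 over cow means. P-values measure the spread among these samples, array noise included. Scripts were tested on simulated data. Tables were prepared in Python 3.11.15.

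The members and gene lists were chosen with earlier results of these data known. Given in full were the 10 highest means, genes with 2 member clones, members in the lists of surface receptors, cytochrome b5 partners and the HAVCR1 family, the 5 smallest p for day and cow, called members up to 10 each way or else the 3 smallest p per contrast, and the 5 clones on each side of the threshold. Alternatives covered centring, scaling, single orientations, values equal to ratios of whole numbers up to 40 (left out where their size was 2 or more), both tables joined, cow-days whose dye-swapped arrays did not correlate below 0, the cow term, array weights, filters and leaving out each cow.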

Additional observations from a re-analysis of the deposited data

Results flagged for a closer look

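On day -65 CYB5A had a log2 ratio of 2.31 in cow 7186, against 3.96 as the nearest of the other 4 cows, a gap of 0.876 of the group's whole range. Of 76 groups of cows examined this was the single one with a sample so far apart. Chance alone flags about 1 group in 20, so 1 of 76 is no more than chance gives. The same cow had 2.44 on day -14 and 5.60 on day -30.

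Of the 5030 rows of the larger table with no clone or gene given here, 23 had a mean of 2 or more, up to 4.73. That is 0.457% of them, beside 1.54% of the rows of listed clones (175 rows).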

How the results depend on the processing

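The set held 138 clones with liver in Cy3 only and 27 at 2 or more in each cow. Array weights, whose estimation stopped before it converged, called 9 members and 261 clones over days, against 0 members and 1 clone without weights, and 16 members and 2035 clones between cows. In limma, no member was called between cows on uncentred arrays (0 of all clones called, 24 members at an unadjusted p under 0.05) or scaled arrays (549 and 3). Nor was any called on Cy3 arrays (746 and 2), Cy5 arrays (4 and 22) or without the unopposed cow-days (0 and 16). In the same order, 21.3%, 29.8%, 31.8%, 20.5% and 27.1% of all clones had an unadjusted p under 0.05. Leaving out each cow gave 0 to 7 called members, with 405 clones called without cow 6934. Scaling, which brought each array to the same spread on the log2 scale, called 5 members and 10 clones for day 1 against day -30. The members' median was then -1.23, and it was 0.68 for day 28 against day 1. For day 1 against day -30, array weights called 9 clones, and 2 were called with the tables joined. Day 28 against day 1 gave 6 clones with Cy3 arrays. The dye difference was called for 15 members and 2974 clones on uncentred arrays. The members' lactation median turned to 0.12 without the unopposed cow-days. Centring moved the median of all clones for lactation, at -0.01 centred and 0.14 uncentred, and for day 1 against day -30, at -0.06 and 0.07. Without cows 6934 and 7188 the test in the smaller table called 1356 and 1343 clones, against 2393 with them.

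Single genes whose sign turned, none of them called between days on centred arrays, were HAVCR1 for day 1 against day -30 (0.039 with Cy3 arrays, -0.75 to 0.099 over leaving out each cow, above 0 without cow 7186), for day 28 against day 1 (0.73 scaled, 0.088 with Cy5 arrays, -0.39 to 0.023 over leaving out each cow, above 0 without cow 7079) and for lactation (0.19 without the unopposed cow-days). CYB5A turned for day 28 against day 1 (-0.060 with Cy5 arrays, -0.11 with array weights, -0.060 to 0.21 over leaving out each cow, below 0 without cow 7188) and for lactation (-0.18 with array weights, -0.44 to 0.56 over leaving out each cow, below 0 without cow 7186). UNC13D turned to -0.27 (scaled) and HSD17B10 to 0.028 (without cow 7079, from a range of -0.68 to 0.028 over leaving out each cow) for day 1 against day -30. AOX1 and GAMT turned to 0.26 and 0.32 for lactation without the unopposed cow-days. In the dye difference AOX1 turned to 0.31 (scaled), GAMT to -0.46 and NSDHL to -0.38 (uncentred). The causes were not tested. Fits with no replicate block, the pairing by cow left out, called 0 members in each comparison of days, as did the fits with the block. Without the block 4 to 7 members had an unadjusted p under 0.05, against 2.35% to 5.91% of all clones. The promoter search was not run.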
